A study of Mus musculus with 6 samples.

Results

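A set of 8 genes known from amyloid, tau and prion diseases was examined in the hippocampus after chronic cerebral hypoperfusion out of the 54752 genes in the count tables. They were App, Aplp1, Aplp2, Mapt, Psen2, Bace1, Clu and Prnp, a set named by symbol for what they are known to do and matched to their Ensembl identifiers. No synuclein gene is among them, and the beta- and gamma-synuclein genes are described with the surrounding pathways. RNA-seq libraries were made from the whole right hippocampus of 6 C57BL/6 mice, all male, WT and 14 weeks old, with 1 library per mouse. The 3 BCAS mice (bilateral carotid artery stenosis) carried a wire microcoil around each common carotid artery, the narrower coil on the right, and the 3 sham mice had the same operation without coils. All were taken 3 weeks after surgery. The comparison asks how hippocampal transcripts differ after a lasting fall of blood flow. The study's histology of BCAS mice reported atrophy of the right hippocampus and neuronal loss in CA1 and the dentate gyrus. It also reported larger infarct areas and more microglial activation on the side of the narrower coil. The model narrows large arteries of young adult wild-type mice, which carry no human amyloid or tau transgene, and the tissue was not sorted into cell types.

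Amyloid-beta is cut from the amyloid precursor protein, first by the beta-secretase Bace1 and then by gamma-secretase, whose catalytic subunit is a presenilin, while cleavage by alpha-secretases of the ADAM family destroys the amyloid-beta sequence. Tau, the product of Mapt, binds axonal microtubules and forms the tangles of Alzheimer's disease when heavily phosphorylated. Clusterin is a secreted chaperone that binds amyloid-beta and is made chiefly by astrocytes in the brain, and the prion protein is a membrane glycoprotein of neurons and glia.

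After BCAS, Clu rose and App, Aplp1, Bace1 and Prnp fell. Clu rose 2.21-fold, while the 4 falls were of 17.9% to 24.6%. Aplp2, Mapt and Psen2 did not pass the test. The test was the quasi-likelihood test of edgeR, run across all 18617 genes with enough counts and adjusted over all of them by Benjamini and Hochberg, and a gene was said to rise or fall when its adjusted P was under 0.05. All 8 genes were tested, 4 fell and 1 rose, where 13.2% of all tested genes fell and 18.0% rose. The count that fell was 0 without sham mouse 1, 2 or 3 or BCAS mouse 1. Clu alone passed the thresholds for differentially expressed genes (DEGs) in the study's methods, which add to that limit a log2 fold change of more than 1 in size and which 8.47% of tested genes passed as higher in BCAS. The 3 BCAS libraries lay wholly below the 3 sham libraries for 5 of the 8 genes and wholly above them for 2, where 22.7% and 25.3% of tested genes did so. The median log2 fold change was -0.24 over the 8 genes and 0.02 over all tested genes.

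The libraries held 29652456 to 35607098 counts, and the 8 genes together took 0.565% to 0.592% of a sham library and 0.617% to 0.636% of a BCAS library. The least covered value was 468 counts, for Psen2 in sham mouse 1, and the best covered was 68554, for Clu in BCAS mouse 1. Levels are given as CPM, counts scaled to a common library total, after TMM scaling, and levels of single genes are compared with each other only as CPM per kb of exon. The tissue markers differed between the groups. All 8 neuronal markers fell (median log2 fold change -0.61), as did 5 of 6 markers of CA1 pyramidal neurons (median -1.11) and 6 of 7 of interneurons (median -0.46). Of 5 markers of dentate granule neurons only Dsp fell (median -0.06), and Prox1, C1ql2, Stxbp6 and Plk5 did not pass the test. In contrast, 7 of 8 astrocyte markers (median 0.74) and 8 of 8 markers of microglia and macrophages (median 2.87) rose. The summed neuronal markers ran from 6112 to 6834 CPM in the sham libraries and from 3400 to 4876 CPM after BCAS, and none of the 7 oligodendrocyte markers passed the test. In RNA of whole tissue, fewer cells of a type and less RNA per cell cannot be told apart. The study's histology reported neuronal loss, and the part of these shifts in the results below was not tested.

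**Figure D1:**
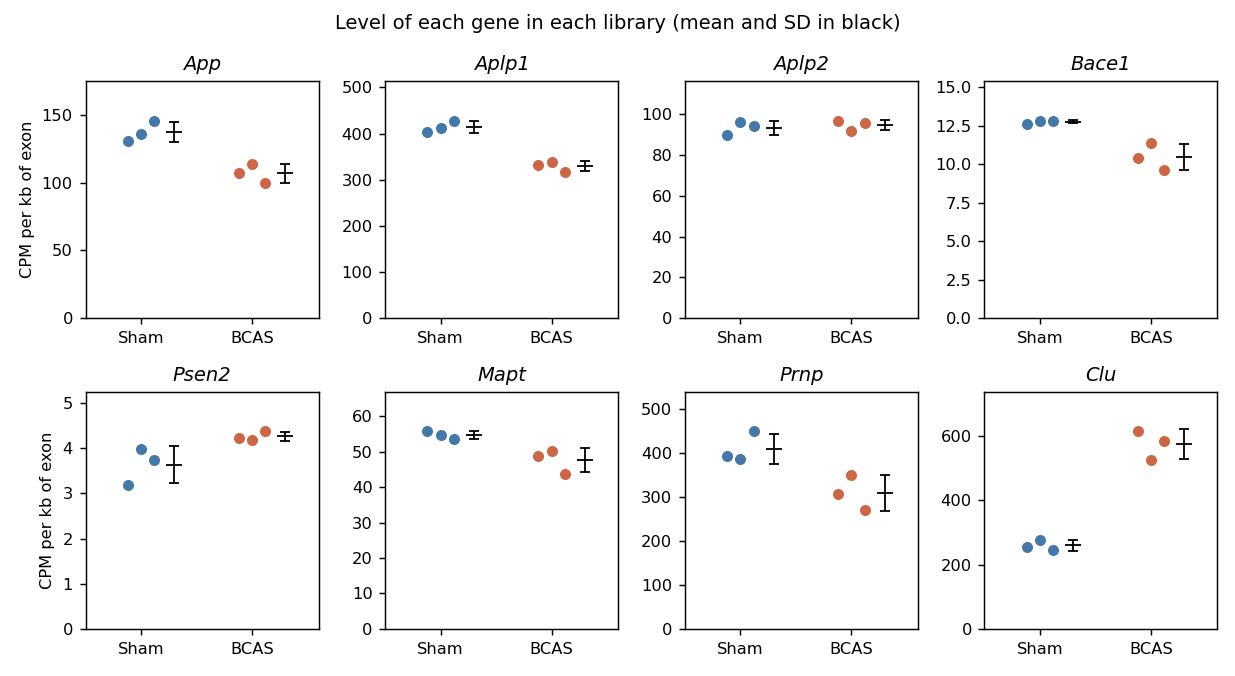
Level of each of the 8 genes in each library, in CPM per kb of exon on linear axes that start at 0. Points are single mice, sham in blue and BCAS in orange, and the black marks give mean and SD of 3 mice. The groups are apart for 7 genes and mixed for Aplp2.

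The promoters of the APP family and of Prnp are shown because App, Aplp1 and Prnp fell together while Aplp2 did not. The sequences are RefSeq's, on build GRCm38.p6, from 250 bases before to 50 after the start, and 5 of the 8 genes (App, Aplp1, Aplp2, Psen2 and Prnp) matched an entry. App's window is chr16:85173658-85173957 on the minus strand, Aplp1's chr7:30445533-30445832 on the minus strand, Aplp2's chr9:31211799-31212098 on the minus strand and Prnp's chr2:131909678-131909977 on the plus strand. Each is written 5′ to 3′ along its gene, and capitals mark GC boxes, the letters GGGCGG or their reverse complement CCGCCC.
App: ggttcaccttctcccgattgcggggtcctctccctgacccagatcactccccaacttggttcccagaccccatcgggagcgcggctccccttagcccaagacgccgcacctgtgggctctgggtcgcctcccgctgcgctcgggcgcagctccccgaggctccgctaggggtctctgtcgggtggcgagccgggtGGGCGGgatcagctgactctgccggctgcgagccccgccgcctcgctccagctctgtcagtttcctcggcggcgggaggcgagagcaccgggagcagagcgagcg
Aplp1: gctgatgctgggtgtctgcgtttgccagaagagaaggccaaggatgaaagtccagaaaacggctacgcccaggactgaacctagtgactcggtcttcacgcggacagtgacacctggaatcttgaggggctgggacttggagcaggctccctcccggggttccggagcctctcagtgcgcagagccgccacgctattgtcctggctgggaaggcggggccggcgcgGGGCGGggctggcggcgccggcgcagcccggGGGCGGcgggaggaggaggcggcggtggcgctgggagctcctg
Aplp2: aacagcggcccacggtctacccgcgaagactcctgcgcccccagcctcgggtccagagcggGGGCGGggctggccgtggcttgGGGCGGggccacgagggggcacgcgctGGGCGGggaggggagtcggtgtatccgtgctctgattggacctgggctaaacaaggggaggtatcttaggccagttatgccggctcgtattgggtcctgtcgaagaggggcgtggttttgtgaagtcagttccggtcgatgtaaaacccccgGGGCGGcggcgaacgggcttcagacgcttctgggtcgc
Prnp: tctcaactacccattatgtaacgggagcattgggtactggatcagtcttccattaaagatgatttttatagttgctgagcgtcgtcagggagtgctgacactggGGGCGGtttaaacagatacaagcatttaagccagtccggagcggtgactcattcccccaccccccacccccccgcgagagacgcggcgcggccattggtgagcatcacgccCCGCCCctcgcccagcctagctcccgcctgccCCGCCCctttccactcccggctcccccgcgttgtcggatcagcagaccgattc

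These windows were rich in G and C, with 71% in App, 68.67% in Aplp1, 67% in Aplp2 and 60% in Prnp, where the median of 32851 promoters of the same length was 52.7%. App's window held 1 GC box, Aplp1's 2, Prnp's 3 and Aplp2's 4, and 35.66% of all promoters held at least 1. Of the 2 Psen2 windows, chr1:180256251-180256550 held 4 GC boxes and chr1:180245901-180246200 held 0. Both strands were also searched for the hypoxia response core ACGTG (in 19.62% of promoters), the interferon gamma activated site TTCNNNGAA (8.298%), the heat shock element GAANNTTC (7.86%) and the cyclic AMP response element TGACGTCA (1.79%), letters that may share bases with each other. Psen2's chr1:180245901-180246200 window held ACGTG on each strand. These 2 matches overlap in 1 site, CACGTG, which reads the same on both strands. The windows of App, Aplp1, Aplp2 and Prnp held none of these 4 strings. Genes that fell and the gene that did not thus both carried GC boxes.

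App, on mm10 chr16:84949685-85173766 (ENSMUSG00000022892.11), encodes the precursor of amyloid-beta. It measured 1699.7, 1762 and 1896 CPM in sham mice 1 to 3 and 1391, 1483 and 1299 CPM in BCAS mice 1 to 3. The lowest sham value lay above the highest BCAS value. App fell by 22.1%, with a log2 fold change of -0.36 (SE 0.12, edgeR adjusted P = 0.0438). The call was lost without sham mouse 1, 2 or 3 or BCAS mouse 1 (adjusted P = 0.0944, 0.116, 0.131 and 0.107) and when library totals replaced the TMM scaling (0.0577). Its adjusted P ran from 0.000186 to 0.259 over 17 alternatives, with the change negative in each.

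Aplp1, on chr7:30434982-30445535 (ENSMUSG00000006651.8), encodes an APP-like membrane protein found mainly in neurons. It measured 1214, 1241 and 1291 CPM in sham mice and 1004, 1018 and 955 CPM in BCAS mice, again without overlap. Aplp1 fell by 20.5%, with a log2 fold change of -0.33 (SE 0.10, edgeR adjusted P = 0.0342). Without sham mouse 1, 2 or 3 or BCAS mouse 1 the adjusted P was 0.0867, 0.107, 0.102 and 0.0866, and with library totals 0.0518, within a range of 2.42e-05 to 0.245 over the 17 alternatives.

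Aplp2, on chr9:31149557-31211815 (ENSMUSG00000031996.17), encodes the APP-like protein made in most tissues. Its levels of 528, 567 and 553 CPM in sham mice and 570.0, 541 and 562 CPM in BCAS mice overlapped. The log2 difference was 0.02, with a 95% interval of -0.17 to 0.21 (edgeR adjusted P = 0.878). The interval of Aplp2 did not include the estimates for App and Aplp1. It overlapped their 95% intervals, -0.62 to -0.10 for App and -0.56 to -0.11 for Aplp1.

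Ratios within a library do not depend on the scaling between libraries. The log2 ratio of Aplp2 to App, in counts per kb of exon, was -0.54, -0.49 and -0.63 in sham mice and -0.14, -0.31 and -0.06 in BCAS mice. It was higher in every BCAS mouse, by 0.38 on average. The log2 ratio of Aplp1 to Aplp2 was lower in every BCAS mouse, with means of 2.15 (SD 0.05, n = 3) and 1.79 (SD 0.07, n = 3). The exact two-sided permutation test gave P = 0.1 for each, the smallest P that 3 mice against 3 allow, and 0.15 after adjustment over the 3 ratios tested. The log2 ratio of Aplp1 to App averaged 1.59 in sham (SD 0.04, n = 3) and 1.62 in BCAS (SD 0.05, n = 3), with overlapping values (exact permutation P = 0.4).

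Bace1, on chr9:45838580-45864399 (ENSMUSG00000032086.12), encodes the beta-secretase that makes the first cut toward amyloid-beta. It measured 80.2, 81.2 and 81.5 CPM in sham mice and 66.2, 72.1 and 61.1 CPM in BCAS mice. Sham mice varied by a CV of 0.817% and BCAS mice by 8.28%, and the groups did not overlap. Bace1 fell by 17.9%, with a log2 fold change of -0.28 (SE 0.08, edgeR adjusted P = 0.0226). The call was lost without any 1 of the 3 sham mice (adjusted P = 0.0630, 0.0771 and 0.0730) and without BCAS mouse 1 (0.0574) or BCAS mouse 3 (0.0519), within 0.00659 to 0.164 over the 17 alternatives. Exons of Bace1 share 975 bases with the antisense gene Rnf214, 951 with Gm49338 and 135 with Gm16536. Strand was ignored in the counting and reads on several genes were left out, so the count of Bace1 leaves out those bases and may hold antisense reads elsewhere.

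Psen2, on chr1:180227004-180263438 (ENSMUSG00000010609.15), encodes a presenilin, the catalytic subunit of gamma-secretase. It was the least abundant of the 8 genes, at 13.8, 17.3 and 16.2 CPM in sham mice and 18.3, 18.1 and 18.9 CPM in BCAS mice. Every BCAS value lay above every sham value, but by less than 1 CPM between sham mouse 2 and BCAS mouse 2. The log2 difference of 0.23 (95% interval -0.03 to 0.49, edgeR adjusted P = 0.161) did not pass the test.

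Other genes of the pathway came from lists written by hand with earlier results of these data known, and a list is described by its counts, not tested as a set. Of 11 secretases and cofactors, all tested, 6 rose and only Bace1 fell, with a median log2 fold change of 0.30. Adam17, an alpha-secretase that also sheds tumor necrosis factor, rose most, from 17.3 ± 1.21 CPM to 45.9 ± 10.9 CPM (SD, n = 3), a log2 fold change of 1.41 (SE 0.16). Bace2, the relative of Bace1, rose by 0.84 on the log2 scale (SE 0.28), the gamma-secretase subunit Ncstn by 0.42 (SE 0.10), the alpha-secretase Adam10 by 0.37 (SE 0.08), the gamma-secretase subunit Aph1a by 0.33 (SE 0.10) and Adam9 by 0.29 (SE 0.09). Relative to Bace1 within a library, the log2 ratio of Adam10 per kb of exon was 0.67, 0.62 and 0.58 in sham mice and 1.22, 1.09 and 1.52 in BCAS mice. That of Adam17 was -2.33, -2.36 and -2.53 in sham mice and -0.99, -0.96 and -0.24 in BCAS mice. These 2 ratios were chosen after their values were seen and have no test.

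**Figure D2:**
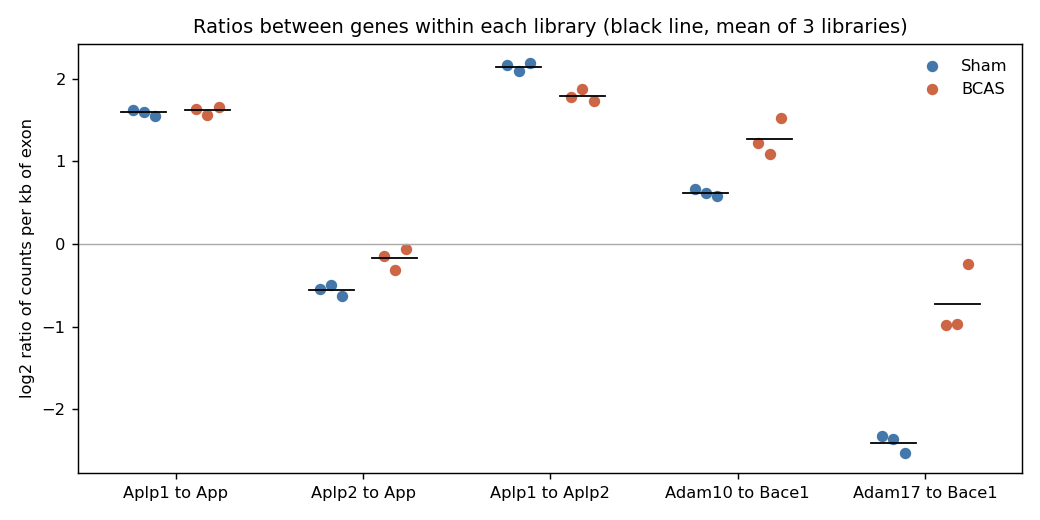
Log2 ratios of counts per kb of exon between pairs of genes in each library, sham in blue and BCAS in orange, with a line at the mean of 3 mice. The ratio of Aplp1 to App overlaps between the groups, and the other 4 ratios do not. The ratios to Bace1 were chosen after their values were seen.

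Of 15 adaptors and trafficking factors of APP, 14 were tested, 5 fell and 1 rose. The adaptors Apbb1 and Apba2 fell by 0.45 and 0.43 on the log2 scale, the sorting receptor Sorl1, which keeps APP away from the secretases, by 0.43, and the reticulons Rtn3 and Rtn4, which bind Bace1, by 0.45 and 0.38. The adjusted P of Rtn3 was 0.0227 in the edgeR fit. Itm2b, an inhibitor of APP processing, rose by 0.51 (SE 0.12). Of 15 genes of amyloid-beta degradation and clearance, 14 were tested, 8 rose and 0 fell, with a median of 0.54. The largest rises were of the protease inhibitor A2m, from 6.50 ± 2.66 to 71.4 ± 19.3 CPM (SD, n = 3), the lysosomal protease Ctsd, from 165 ± 23.4 to 1729.8 ± 499.6 CPM, and the plasminogen activator Plau, from 2.97 ± 0.18 to 24.7 ± 4.09 CPM. Ctsb, Cst3, Lrp1, Plat and Ece1 were the other 5. The main amyloid-beta proteases neprilysin and insulin-degrading enzyme did not pass the test, with log2 differences of 0.07 for Mme (SE 0.19) and -0.10 for Ide (SE 0.14).

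Mapt, on chr11:104231390-104332090 (ENSMUSG00000018411.17), encodes tau. It measured 419.8, 412 and 403 CPM in sham mice and 367, 378 and 329 CPM in BCAS mice. The groups did not overlap, and the log2 difference of -0.20 (SE 0.08, edgeR adjusted P = 0.103) did not pass the test. DESeq2 alone of the 17 alternatives called it, at an adjusted P of 0.0385, within a range up to 0.374.

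None of 15 tau kinases rose and 5 fell, namely Gsk3a, Cdk5 and its activator Cdk5r1, Ttbk1 and Ttbk2, with log2 fold changes of -0.44, -0.34, -0.40, -0.32 and -0.24. Of 13 tau phosphatases, isomerases and chaperones, 9 fell and 0 rose, with a median of -0.35. Ppp3ca, the catalytic subunit of calcineurin, fell most, from 1755 ± 38.5 to 962 ± 195 CPM (SD, n = 3), a log2 fold change of -0.87 (SE 0.15). Subunits of protein phosphatase 2A, the main tau phosphatase, were 6 of the 9, with Ppp2r2b at -0.53 and Ppp2r1a at -0.44. Of 13 microtubule-associated genes, which include Mapt, 4 fell and 0 rose: Stmn3 (-0.64), Stmn2 (-0.60), Map1b (-0.50) and Map1a (-0.35). Stmn2 also stands in the list of neuronal markers.

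**Figure D3:**
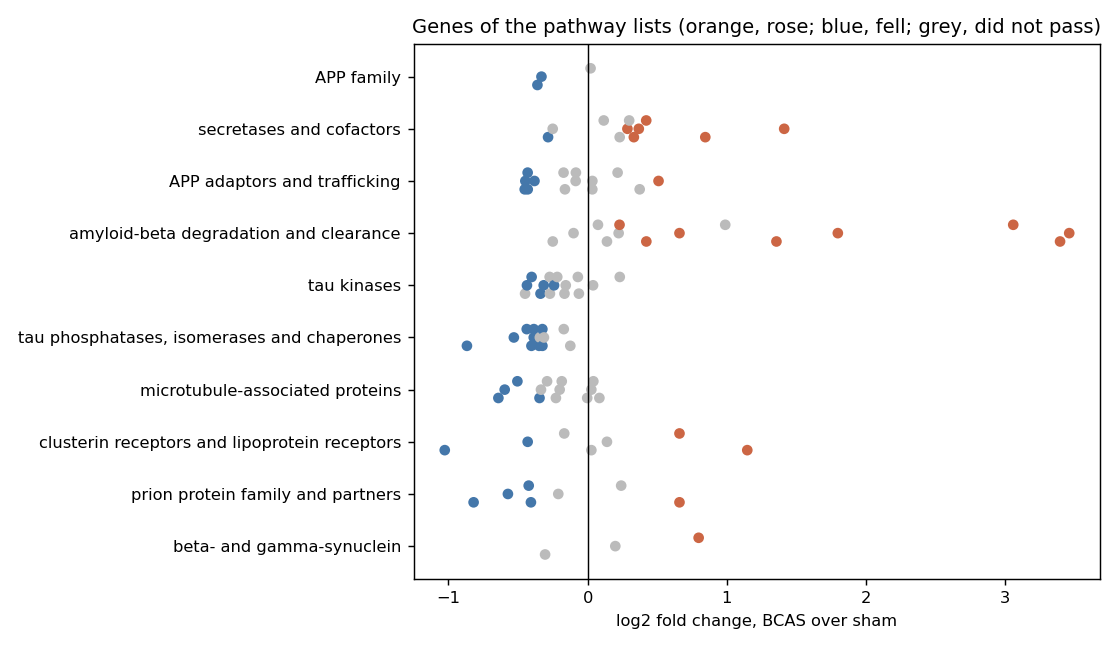
Log2 fold changes of the tested genes in 10 hand-written pathway lists, with a point for each gene, orange for genes that rose, blue for genes that fell and grey for those that did not pass the test at an adjusted P under 0.05. All 8 genes that passed in the degradation and clearance list rose, and all 9 that passed among tau phosphatases, isomerases and chaperones fell.

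Prnp, on chr2:131909928-131938429 (ENSMUSG00000079037.9), encodes the prion protein. It measured 923, 908 and 1055 CPM in sham mice and 722, 821 and 633 CPM in BCAS mice. The gap between the groups was narrow beside the spread within them, with a CV of 8.43% in sham mice and 13.0% in BCAS mice. Prnp fell by 24.6%, with a log2 fold change of -0.41 (SE 0.12, edgeR adjusted P = 0.0360). The call was lost without sham mouse 1, 2 or 3 (adjusted P = 0.0823, 0.0727 and 0.127) and without BCAS mouse 1 (0.0886) or 3 (0.0588), within 0.00175 to 0.170 over the 17 alternatives. Of 8 genes in the list of prion family and partners, 7 were tested, 4 fell and 1 rose. Sprn, which encodes the related protein Shadoo, fell by 0.82 on the log2 scale (SE 0.13), Grm5, a glutamate receptor that couples to the prion protein, by 0.57 and the cochaperone Stip1 by 0.42. The endocytic receptor Lrp1 rose by 0.66 (SE 0.11).

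The 5 genes whose BCAS values all lay below sham, App, Aplp1, Bace1, Mapt and Prnp, shared an order among the BCAS mice. Each was lowest in BCAS mouse 3 and, among BCAS mice, highest in BCAS mouse 2. By the way these genes were picked, their lowest value had to be in a BCAS mouse. The share of all tested genes with this order was not counted. The geometric mean of the neuronal markers had the same order, at 371 CPM in BCAS mouse 1, 401 in mouse 2 and 301 in mouse 3, with 534, 554 and 580.2 CPM in sham mice 1 to 3. Among sham mice App, Aplp1 and Bace1 followed the order of these markers, Mapt ran the opposite way and Prnp had another order. Relative to this neuronal level, as a ratio of CPM not corrected for length, App had a mean log2 ratio of 1.68 in sham (SD 0.02, n = 3) and 1.97 in BCAS (SD 0.12, n = 3), and Prnp of 0.79 (SD 0.07) and 1.02 (SD 0.06). The fitted log2 differences of all 5 were nearer to 0 than the median of the neuronal markers, and this was not tested.

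**Figure D4:**
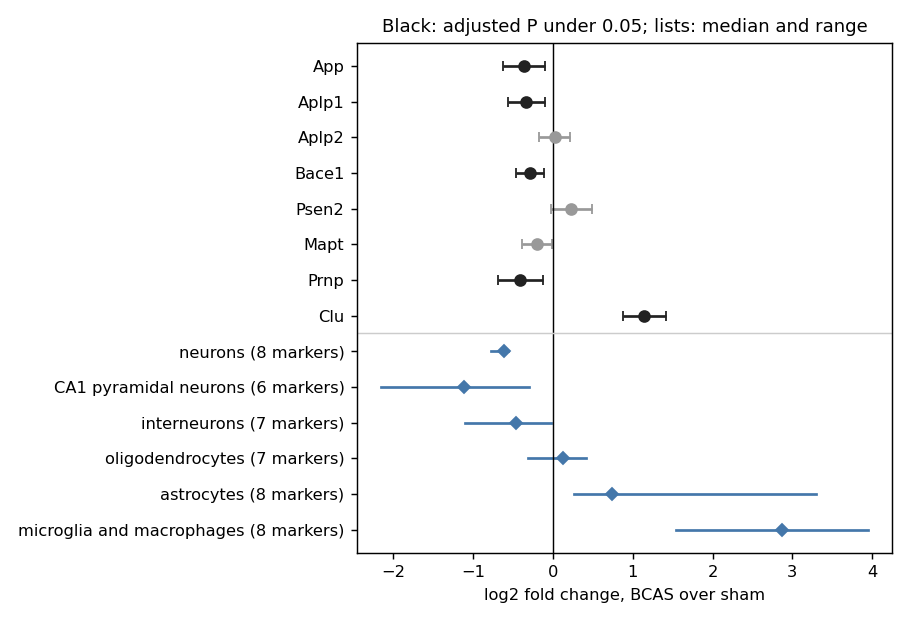
Log2 fold change of BCAS over sham for the 8 genes, with 95% intervals, black where the adjusted P was under 0.05 and grey elsewhere, above marker lists of 6 cell types drawn as the median (diamond) and the range over the markers (line). Clu lies at 1.15 and the 4 genes that fell between -0.41 and -0.28, nearer to 0 than the neuronal median of -0.61.

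Clu, on chr14:65968483-65981547 (ENSMUSG00000022037.15), encodes clusterin. It measured 872, 954 and 847 CPM in sham mice and 2110.0, 1801 and 2005 CPM in BCAS mice. The lowest BCAS value was far above the highest sham value. The log2 fold change was 1.15 (SE 0.12, 95% interval 0.88 to 1.42, edgeR adjusted P = 0.000195). Clu was called higher in 17 of 17 alternatives, with log2 fold changes of 1.09 to 1.22. It was the most abundant of the 8 genes in BCAS mice, at 574 CPM per kb (SD 45.7, n = 3), and stood behind Aplp1 and Prnp in sham mice at 259 CPM per kb (SD 16.3, n = 3).

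Astrocyte markers moved with Clu. Relative to the geometric mean of the 8 astrocyte markers, the log2 ratio of Clu, in CPM not corrected for length, averaged 1.61 in sham (SD 0.11, n = 3) and 1.65 in BCAS (SD 0.11, n = 3), and the values overlapped. The mean joins unequal markers. The log2 fold changes of Gfap (3.29), an intermediate filament gene, and of the water channel gene Aqp4 (1.67) were larger than that of Clu, and those of the other 6 markers, 0.26 for Aldoc to 1.01 for S100b, were smaller. Per kb, the log2 ratio of Clu to Gfap went from 1.55 to -0.60 and that to Aqp4 from 3.13 to 2.60, while that to the glutamate transporter gene Slc1a3 went from 1.93 to 2.42. These 3 ratios were chosen after their values were seen and have no test. Whether astrocytes made the added Clu transcripts was not tested.

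Choroid plexus epithelium, which also makes clusterin, was present in unequal amounts. Its marker Ttr measured 882, 3773 and 38.0 CPM in sham mice and 5461, 23.7 and 2930.2 CPM in BCAS mice. Clu measured 847 CPM in sham mouse 3 and 1801 CPM in BCAS mouse 2, the libraries with the least Ttr in each group. Within each group Clu had the same order over the 3 mice as Ttr. The 5 markers of choroid plexus and ependyma summed to 74.9 to 4021 CPM in sham and 52.6 to 5839 CPM in BCAS libraries, and 1 of them rose. Without sham mouse 2 and BCAS mouse 1, the libraries richest in Ttr of each group, Clu was called higher at a log2 fold change of 1.15 (SE 0.20). In that fit on 4 mice App, Aplp1, Bace1 and Prnp had log2 fold changes of -0.37, -0.35, -0.28 and -0.45, close to those with all mice, and were not called (edgeR adjusted P = 0.164 to 0.259). With the level of choroid plexus markers as a covariate and all mice kept, the 4 genes were called lower (edgeR adjusted P = 0.0171 to 0.0254) and Clu higher, at 1.11. The part of choroid plexus tissue in the level of Clu was otherwise not tested.

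**Figure D5:**
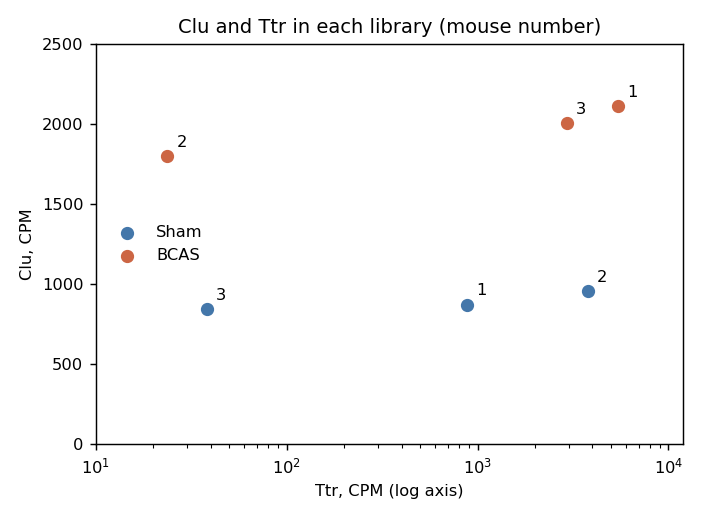
Clu (CPM, linear axis from 0) against the choroid plexus marker Ttr (CPM, log axis) in each library, sham in blue and BCAS in orange, numbered by mouse. Ttr overlaps between the groups and runs from 23.7 to 5461 CPM over the 6 libraries, while Clu is 847 to 954 CPM in sham and 1801 to 2110.0 CPM in BCAS mice, in the order of Ttr within each group.

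Over the 6 libraries, the tested genes whose log2 CPM followed Clu most closely were Pofut2, Hsdl2 and Ednrb, with Pearson r of 0.999, 0.998 and 0.998. These points share the split into sham and BCAS, and 1300 of 18616 genes had an r above 0.95. In the list of clusterin and lipoprotein receptors, Lrp1 rose, with the value given above. The sorting receptor Sort1 fell by 0.43 (SE 0.11).

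Per kb of exon, the order of the 8 genes in sham mice was Aplp1 (414 CPM per kb), Prnp (410.5), Clu (259), App (137), Aplp2 (93.5), Mapt (54.6), Bace1 (12.8) and Psen2 (3.63). Aplp1 and Prnp overlapped in both groups and are not ordered by these data. In BCAS mice Clu came first, and the order of the other 7 was the same. The merged exons of App span 12996 bases, while its longest coding transcript has 8167, so its level per kb depends on the length used. With the longest coding transcript, Clu came before Prnp in sham mice, at 492 and 440.4 CPM per kb.

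The synuclein genes examined were Sncb and Sncg, for beta- and gamma-synuclein, with Sncaip, which encodes synphilin-1. Sncaip rose from 6.07 ± 0.46 to 10.5 ± 2.36 CPM (SD, n = 3), a log2 fold change of 0.80 (SE 0.19). Sncb differed by -0.31 (SE 0.17, edgeR adjusted P = 0.206) and Sncg by 0.20 (SE 0.24, edgeR adjusted P = 0.571), and neither passed the test. Over all lists, 92 genes stood beside the 8, of which 89 were tested, 16 rose and 28 fell, with a median log2 fold change of -0.17. Of all tested genes 18.0% rose and 13.2% fell. The share of these hand-picked genes that rose was that of all genes, and the share that fell was larger, which was not tested. Without sham mouse 1, 2 or 3 or BCAS mouse 1, the count that fell was 14, 13, 12 and 17, and without sham mouse 1 or 2 the count that rose was 9 and 10.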

How the data were processed

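RNA of the whole right hippocampus was sequenced from 3 sham and 3 BCAS mice, grouped by their labels. Reads were trimmed with Trim Galore, aligned to mm10 with HISAT2 and sorted with SAMtools (1.9) by the authors, who deposited raw featureCounts counts of each gene, not normalized. The file headers name featureCounts 2.0.3 with GENCODE mouse release 20, while the methods and processing notes name featureCounts 1.6.3. Per the file headers, mates were counted separately, strand was ignored, and reads on several places or genes were not counted, so genes that overlap lose reads. The deposited exon lengths in bases gave levels per kb. Of the 54752 genes, 54723 were matched to a symbol.

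Genes kept by filterByExpr were scaled by TMM and tested with edgeR 4.0.16 in R 4.3.3, with limma 3.58.1 and DESeq2 1.42.0 as alternatives. Log2 CPM used a prior count of 2. TMM factors were 0.964 to 0.984 in sham and 1.01 to 1.05 in BCAS libraries, and 3 counts, taken as the limit of detection, equalled 0.0875 to 0.0995 CPM, which covers counting error only. The common biological coefficient of variation was 0.161. The steps were tested on simulated data.

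The 8 genes and all lists were chosen with earlier results of these data known. The genes named are the 8, the 3 largest rises and falls among genes passing the test in each pathway list, the cell type markers and the 3 genes most correlated with Clu. Further genes and the ratios to Bace1 and to astrocyte markers were named after their values were seen. The lists are hand-made selections, are not complete, and leave out some well-known genes of these pathways, which are not reported here. Apbb3 was not matched, and Plg and Prnd had too few counts to be tested. Alternatives were DESeq2, limma-voom, RLE or library totals, other count filters, thinned counts, a replicate block, the DEG thresholds and each mouse left out. Halved counts, a choroid plexus covariate, leaving out the library richest in Ttr of each group and another gene length were added after seeing the data.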

Additional observations from a re-analysis of the deposited data

How the results depend on the processing

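The rise of Clu was called under all 17 alternatives. Of the 8 genes, 4 fell in the main analysis, 2 with library totals in place of TMM (Bace1 and Prnp), 0 at the DEG thresholds, 0 without the library richest in choroid plexus markers of each group, 4 with the level of those markers as a covariate, and 0 to 4 with each mouse left out. Mice of the same number are not stated to be pairs. Deviations of libraries with the same number from their group means correlated at 0.04, -0.31 and -0.16. With 3 mice per group these correlations cannot settle whether they are pairs. With the replicate block 1 of the 4, Bace1, was still called. The edgeR adjusted P in that fit was 0.135 for App, 0.116 for Aplp1 and 0.0951 for Prnp. Of the other pathway genes, 28 fell and 16 rose, where 13.2% and 18.0% of all tested genes did. At the DEG thresholds these counts were 1 and 6, and with each mouse left out 12 to 42 and 9 to 15. They were 4 and 9 without the libraries richest in choroid plexus markers, and 34 and 19 with those markers as a covariate. The number of all genes that fell moved too, from 2463 to 1009 without those libraries and to 1260 to 3092 with each mouse left out. Aplp2, which passed no test, ranged from -0.010 (without sham mouse 1) to 0.041 on the log2 scale with each mouse left out. With each mouse left out, the log2 ratio difference was 0.33 to 0.45 for Aplp2 to App and -0.39 to -0.32 for Aplp1 to Aplp2, and dividing by length or blocking by number cannot change these differences. Fits on 4 or 5 mice have fewer samples, and the cause of the other changes was not tested. Each of the 8 genes had at least 468 counts in every library. With thinned or halved counts 4 of them fell and 1 rose. Whether more depth would change the calls was not tested.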
